A study of Mus musculus with 8 samples.

Results

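The genes of the insulin-like growth factor (IGF) system were followed in the thoracic aorta of newborn mice without fibulin-4, which elastic fibres in the vessel wall need to form. They comprised 10 of the 22180 genes with a single annotated symbol: the ligands Igf1 and Igf2, the receptors Igf1r and Igf2r, and the binding proteins Igfbp2 to Igfbp7. The members were chosen by symbol, and where a gene had several rows of the array table the row was to be selected on the highest mean log2 level. Each of the 10 genes had 1 row, so no measured level decided which rows were used. The family was picked with earlier results of these data known, among them the call of Igfbp2, and counts over its members are therefore descriptions.

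All pups were of strain C57BL/6 at postnatal day 0, and were either wild-type or fibulin-4 knockout, with no other allele or agent stated. The ascending segment reached from the aortic valve as far as the ductus arteriosus, and the descending segment from the level of the vena cava down to the diaphragm. Segments of the same genotype were pooled from 8 pups, and 2 pools per genotype and segment, termed biological replicates in the labels, were hybridised to 8 arrays. Their spread is therefore that between pools of pups, not between single pups.

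IGF-I and IGF-II are secreted growth factors that signal through the type 1 IGF receptor, a tyrosine kinase, to promote growth and survival, in smooth muscle cells among others. The type 2 receptor, which is also the cation-independent mannose 6-phosphate receptor, takes up IGF-II and delivers it to lysosomes. IGF binding proteins hold the ligands in plasma and matrix, prolong their life, and can either block or aid their access to the receptor. Igf2 is the main growth factor gene of the fetus and is expressed from the paternal copy, whereas Igf2r is expressed from the maternal copy in mice.

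Values are on the log2 scale of the deposited table, so 1 unit is a 2-fold difference, and levels of different genes are not compared because each row has its own probes. Smooth muscle markers were present on every array. The mean of 12 such markers lay between 8.56 and 9.06, and Acta2, smooth muscle actin, lay between 12.10 and 12.45. The value distributions of both wild-type replicate 2 arrays were narrower, with interquartile ranges of 1.80 and 1.74 against 2.14 to 2.28 on the other 6 arrays. The deleted gene itself is not analysed here. In pooled tissue, fewer cells of a type and less RNA per cell cannot be told apart.

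Igfbp2 rose in the knockout, by 2.41 on the log2 scale over the mean of both segments, and it was the only one of the 10 genes called (limma adjusted p under 0.05 over all genes; 0.0721% of all genes were called). Igfbp3, Igf2, Igf2r, Igf1r and Igfbp7 had higher values on both knockout arrays than on both wild-type arrays in each segment, without passing that threshold. Igfbp5 was lower by 0.43, while Igfbp4 was lower in the ascending segment alone. With Igfbp2 included, 6 of 10 genes lay apart upwards in both segments, against 7.81% of all genes and 21.2% of the brightest 20% of genes, in which all 10 fell; 0 of 10 lay apart downwards, against 4.04% of all genes. At an unadjusted p under 0.05 there were 5 higher genes and 1 lower gene, against 7.57% and 3.83% of all genes. In either direction, 21.8% of the brightest 20% of genes passed it. The median change of the 10 genes was 0.38, against -0.0013 over all genes and 0.24 in the brightest 20%.

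No IGF gene was called within a single segment, where limma called 0% of all genes in the ascending and 0.00451% in the descending aorta. In the ascending segment the arrays of 6 genes lay apart upwards and those of 3, Igfbp4, Igfbp5 and Igfbp6, downwards, against 21.5% and 18.3% of all genes; of the brightest 20% of genes, 43.8% lay apart upwards there. In the descending segment 7 genes lay apart upwards and 1, Igf1, downwards, against 21.6% and 15.8% of all genes, and 37.2% of the brightest 20% lay apart upwards.

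**Figure D1:**
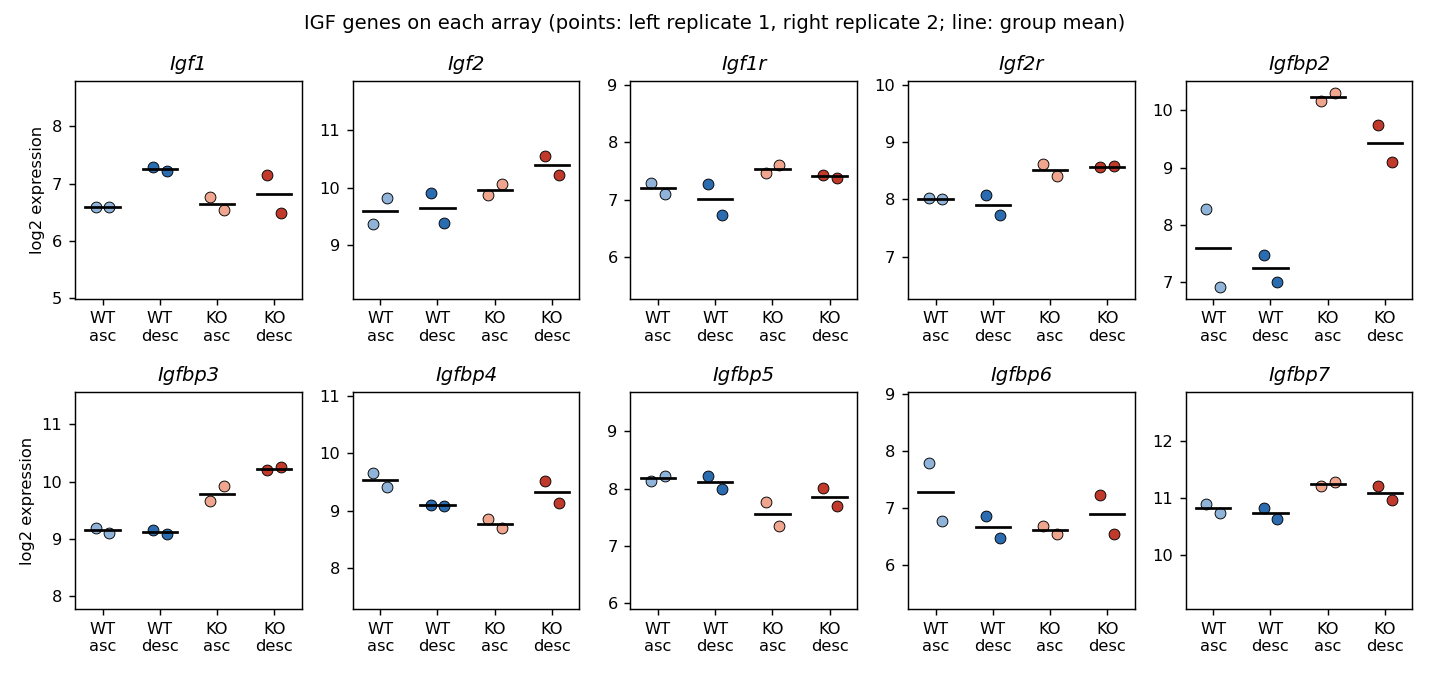
Log2 expression of the 10 IGF genes on each of the 8 arrays; in each panel the vertical axis spans the same number of log2 units, points are arrays (replicate 1 left, replicate 2 right), lines are group means, WT is wild-type, KO knockout, asc ascending and desc descending. The knockout arrays of Igfbp2 lie between 9.10 and 10.31, all above the wild-type arrays, which lie between 6.92 and 8.27.

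Of the ligands, Igf2 had values of 9.37 and 9.81 in wild-type ascending, 9.90 and 9.37 in wild-type descending, 9.86 and 10.06 in knockout ascending, and 10.55 and 10.23 in knockout descending aorta. The knockout arrays were the higher ones within each segment, but knockout ascending replicate 1 lay below wild-type descending replicate 1. Over both segments its log2 change was 0.56 (SE 0.21; limma unadjusted p = 0.0224, adjusted p = 0.374), and it was 0.37 (SE 0.29) in the ascending and 0.75 (SE 0.29) in the descending segment. Without wild-type ascending replicate 1 or 2 the ascending value was 0.15 and 0.60. By mean, the order of the groups was knockout descending (10.39 ± 0.23, SD, n = 2), knockout ascending (9.96 ± 0.14), wild-type descending (9.63 ± 0.37) and wild-type ascending (9.59 ± 0.32). The 2 wild-type groups overlapped, and the step between the knockout groups, -0.43 for ascending minus descending, had an unadjusted p of 0.178 by limma. The Igf2 gene hosts the microRNA gene Mir483 and is overlapped by the antisense transcript Igf2os, both chosen here for their position. Their own rows had log2 changes of -0.20 (SE 0.28) for Mir483 and 0.09 (SE 0.22) for Igf2os over both segments, neither called. Markers of sympathetic nerve and chromaffin cells were higher in knockout descending aorta for 9 of 9 genes, with a median of 0.73, and their mean there was 5.84 and 5.84, against 5.13 to 5.36 on the other 6 arrays. Cardiomyocyte markers were higher there for 10 of 12 genes, with a median of 0.68, and their mean was 7.57 and 7.44, against 6.32 to 7.16 on the other 6 arrays. The part of these cells in the Igf2 values was not tested.

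Igf1, the other ligand, had its highest values in wild-type descending aorta. Its values were 6.59 and 6.59 in wild-type ascending, 7.29 and 7.23 in wild-type descending, 6.76 and 6.53 in knockout ascending, and 7.15 and 6.49 in knockout descending aorta. Both wild-type descending arrays stood above all others, and knockout descending replicate 1 came close to them. The segment difference (ascending minus descending) was -0.67 (SE 0.28; limma unadjusted p = 0.0398, adjusted p = 0.785) in the wild-type and -0.17 (SE 0.28) in the knockout. The test of the difference between those values gave 0.49 (SE 0.40) at an unadjusted p of 0.243. No IGF gene was called between segments, where limma called 0.00902% of all genes in wild-type and 0% in knockout aorta. Among the 10 genes, Igf1 alone had an unadjusted p under 0.05 for the wild-type segments, where 6.19% of all genes did, and none did for the knockout segments, where 4.04% did. In wild-type aorta the segments did not overlap for Igfbp4, higher in the ascending, and Igf1, lower there, against 15.9% and 14.1% of all genes. In knockout aorta Igf1r, Igfbp2 and Igfbp7 lay apart upwards and Igf2, Igfbp3 and Igfbp4 downwards, against 18.3% and 20.8%. The knockout effect on Igf1 was 0.05 in the ascending and -0.44 in the descending segment, with an interval of -0.64 to 0.25 for the mean of both. Without knockout descending replicate 1 or 2 the descending value was -0.77 and -0.11, and without knockout ascending replicate 1 or 2 the ascending value was -0.06 and 0.17.

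Markers of brown fat and adipocytes stood beside Igf1. Their mean over 12 genes was 7.58 and 6.87 in wild-type descending aorta and between 5.44 and 6.22 on the other 6 arrays. In wild-type aorta 11 of the 12 were lower in the ascending segment, with a median of -1.16, and all 12 were lower in knockout than in wild-type descending aorta, with a median of -0.97. In knockout descending aorta the mean of the 12 markers was 5.99 and 6.13, and Igf1 was 7.15 and 6.49. The part of these cells in the Igf1 values was not tested; the deposited scale gives no marker a value of 0.

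Both receptors had higher knockout values. Igf2r stood at 8.02 and 8.01 in wild-type ascending, 8.07 and 7.72 in wild-type descending, 8.61 and 8.40 in knockout ascending, and 8.56 and 8.58 in knockout descending aorta. All 4 knockout arrays lay above all 4 wild-type arrays. Igf2r differed by 0.58 (SE 0.18; limma unadjusted p = 0.00814, adjusted p = 0.308), with 0.49 in the ascending and 0.68 in the descending segment. Igf1r stood at 7.30 and 7.10 in wild-type ascending, 7.28 and 6.74 in wild-type descending, 7.46 and 7.61 in knockout ascending, and 7.44 and 7.39 in knockout descending aorta. Its 4 knockout arrays were also above the 4 wild-type arrays, but the highest wild-type value, 7.30, was close to the lowest knockout value, 7.39. Igf1r differed by 0.37 (SE 0.19; unadjusted p = 0.0804 by limma), and 0.19 without both narrow wild-type arrays.

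Among the binding proteins, 4 genes were picked by their values. Igfbp2 and Igfbp3 had the largest positive changes, and Igfbp4 and Igfbp5 were lower at a limma unadjusted p under 0.05 in the ascending segment. Their proximal promoters are shown to set these genes side by side, from 250 bases before to 50 bases after the annotated gene start. They come from RefSeq, build GRCm38.p6, which held promoters for all 10 genes, and of several annotated starts the first listed is shown. The 4 windows are chr1:72824230-72824529 on the plus strand for Igfbp2, chr11:7213874-7214173 on the minus strand for Igfbp3, chr11:99040994-99041293 on the plus strand for Igfbp4 and chr1:72874816-72875115 on the minus strand for Igfbp5. Capitals mark the GC box GGGCGG and the TATA box TATAAA, each searched on both strands.
Igfbp2: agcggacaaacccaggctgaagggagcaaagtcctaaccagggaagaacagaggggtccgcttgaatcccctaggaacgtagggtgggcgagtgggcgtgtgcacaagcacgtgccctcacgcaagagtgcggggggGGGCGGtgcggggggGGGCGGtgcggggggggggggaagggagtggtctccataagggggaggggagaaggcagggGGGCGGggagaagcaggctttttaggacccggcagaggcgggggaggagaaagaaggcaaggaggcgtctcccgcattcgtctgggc
Igfbp3: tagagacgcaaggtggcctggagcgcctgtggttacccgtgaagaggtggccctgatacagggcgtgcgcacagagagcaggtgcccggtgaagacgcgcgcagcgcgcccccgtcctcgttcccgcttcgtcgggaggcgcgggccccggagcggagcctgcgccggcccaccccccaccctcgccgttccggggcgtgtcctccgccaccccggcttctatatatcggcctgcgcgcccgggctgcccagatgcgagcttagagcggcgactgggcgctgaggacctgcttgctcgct
Igfbp4: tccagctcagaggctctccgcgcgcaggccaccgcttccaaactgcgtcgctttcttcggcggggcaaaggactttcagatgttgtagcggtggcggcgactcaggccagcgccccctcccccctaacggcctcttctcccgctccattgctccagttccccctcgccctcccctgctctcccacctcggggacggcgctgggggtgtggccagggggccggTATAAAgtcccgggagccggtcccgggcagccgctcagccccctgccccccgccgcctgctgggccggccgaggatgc
Igfbp5: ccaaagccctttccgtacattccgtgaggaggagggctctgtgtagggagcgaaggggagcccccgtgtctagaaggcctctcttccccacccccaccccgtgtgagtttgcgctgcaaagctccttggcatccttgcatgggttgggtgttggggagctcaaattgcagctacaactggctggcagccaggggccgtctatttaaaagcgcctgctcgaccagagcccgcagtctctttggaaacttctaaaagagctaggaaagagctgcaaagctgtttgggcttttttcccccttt
The Igfbp2 window held 3 GC boxes, which occur in 35.7% of all promoters of this length, and the Igfbp4 window held a TATA box 28 bases before the start, which 13.6% have. The windows of Igfbp3 and Igfbp5 held neither motif. That of Igfbp5 held the TEAD motif GGAATG, found in 14.7% of all promoters, and the SMAD motif GTCTAG, found in 8.37%. The core of the hypoxia response element, ACGTG, was found in the Igfbp2 window, on both strands at overlapping positions, and in 19.6% of all promoters. The GC content was 67.0% for Igfbp2, 71.7% for Igfbp3, 71.3% for Igfbp4 and 56.3% for Igfbp5, against a median of 52.7% over all promoters. Igfbp2 and Igfbp5 are neighbours with no annotated gene between them, as are Igfbp3 and Igfbp1.

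Igfbp2 encodes a binding protein that prefers IGF-II and carries an RGD sequence through which it can bind integrins. Its values were 8.27 and 6.92 in wild-type ascending, 7.48 and 7.0 in wild-type descending, 10.17 and 10.31 in knockout ascending, and 9.75 and 9.10 in knockout descending aorta. Every knockout array was higher than every wild-type array. The widest gap between replicates was in wild-type ascending aorta, where they differed by more than 1 unit (7.60 ± 0.96, SD, n = 2). The log2 change was 2.41 (SE 0.30, 95% interval 1.73 to 3.09), or 5.32-fold, with a limma adjusted p of 0.0287. Within the segments it was 2.64 (SE 0.43; adjusted p = 0.135) in the ascending and 2.18 (SE 0.43; adjusted p = 0.406) in the descending aorta, neither of which was called. The segment effects differed by 0.45 (95% interval -0.91 to 1.82; unadjusted p = 0.473 by limma).

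Whether Igfbp2 was called depended on which arrays were used. Without wild-type descending replicate 1 or 2 the adjusted p was 0.104 and 0.203, without knockout ascending replicate 1 or 2 it was 0.159 and 0.226, and without knockout descending replicate 1 or 2 it was 0.165 and 0.141, by limma in each case. Without wild-type ascending replicate 1 or 2 the call held, at 0.00880 and 0.0278, and without both narrow wild-type arrays it held at 0.0472. Its size moved less, between 1.95 and 2.75 over these fits. In the ascending segment Igfbp2 was called without wild-type ascending replicate 1 (3.31, adjusted p = 0.0455).

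**Figure D2:**
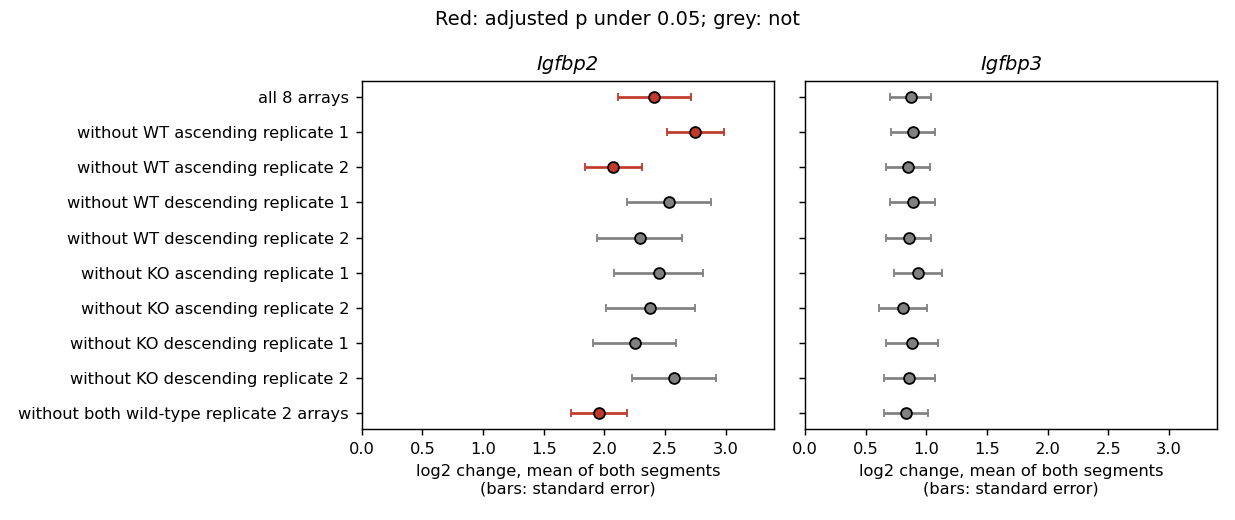
Log2 change of Igfbp2 and Igfbp3 over the mean of both segments (horizontal axis, knockout minus wild-type) with all 8 arrays and with arrays left out (rows); bars are standard errors, red points have a limma adjusted p under 0.05 and grey points do not. Igfbp2 stays between 1.95 and 2.75, while its call is lost in 6 of the fits; Igfbp3 stays between 0.81 and 0.93 and is not called.

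Several marker lists differed between genotypes over both segments, as did Igfbp2. Myeloid markers were higher for 12 of 12 genes, with a median of 0.79, 9 genes at an unadjusted p under 0.05, and a mean level of 6.72 to 7.45 on wild-type and 7.65 to 8.08 on knockout arrays, and smooth muscle markers for 10 of 12, with a median of 0.31 and 4 at an unadjusted p under 0.05. Brown fat and adipocyte markers were lower for 11 of 12 genes, with a median of -0.70 and 7 lower at an unadjusted p under 0.05. Endothelial markers were lower for 11 of 12, with a median of -0.42, and with 4 lower and 1 higher at that threshold. Of all genes, 7.57% were higher and 3.83% lower at it. Hepatocytes are a known source of IGF binding proteins. Of their markers, 6 of 7 were above 0, with a median of 0.52 and none at an unadjusted p under 0.05 by limma. The mean of those 7 was 7.24 and 6.19 in knockout ascending, 5.70 and 7.58 in knockout descending, and between 5.97 and 6.62 in wild-type aorta. On the same arrays Igfbp2 was 10.17 and 10.31 in knockout ascending and 9.75 and 9.10 in knockout descending aorta. The part of any of these cells in the Igfbp2 values was not tested.

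Igfbp3, the main carrier of IGFs in plasma, also made in the vessel wall, followed Igfbp2 in size. Its values were 9.20 and 9.11 in wild-type ascending, 9.15 and 9.09 in wild-type descending, 9.67 and 9.92 in knockout ascending, and 10.21 and 10.25 in knockout descending aorta. The 4 wild-type values lay close together, and all knockout values were above them. The log2 change was 0.87 (SE 0.17, 95% interval 0.49 to 1.25), or 1.83-fold, with a limma unadjusted p of 0.000494 and an adjusted p of 0.132. It was 0.64 (SE 0.24) in the ascending and 1.10 (SE 0.24) in the descending segment. The difference between them, -0.47 (SE 0.34), had an unadjusted p of 0.199. Where Igfbp2 had its highest knockout values in the ascending segment, Igfbp3 had them in the descending one, on the arrays where sympathetic and cardiomyocyte markers were also highest. The part of those cells and of the myeloid and other cells named beside Igfbp2 was not tested for Igfbp3 either.

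Igfbp7, a secreted protein of vessel walls that binds IGFs with low affinity, had a small difference. Its values were 10.89 and 10.74 in wild-type ascending, 10.83 and 10.64 in wild-type descending, 11.21 and 11.27 in knockout ascending, and 11.21 and 10.96 in knockout descending aorta. All knockout arrays were above all wild-type arrays, with the nearest pair at 10.96 and 10.89. Igfbp7 differed by 0.39 (SE 0.17, limma unadjusted p = 0.0487, adjusted p = 0.433), and by 0.30 without both narrow wild-type arrays.

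**Figure D3:**
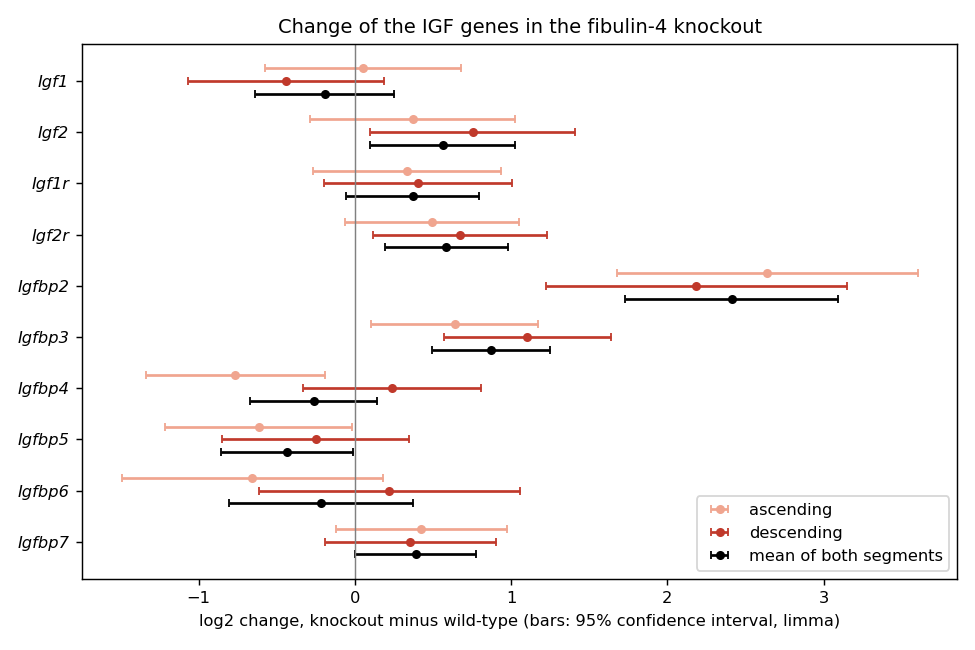
Log2 change of each IGF gene, knockout minus wild-type (horizontal axis), in the ascending segment, the descending segment and their mean; bars are 95% confidence intervals from limma. The interval of Igfbp2 for the mean of both segments runs from 1.73 to 3.09, and those of Igf1, Igf1r, Igfbp4 and Igfbp6 include 0.

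Igfbp4 and Igfbp5, of which the first mostly restrains IGF action and the second binds to matrix, had lower values in the knockout ascending aorta. Igfbp4 stood at 9.66 and 9.41 in wild-type ascending, 9.09 and 9.09 in wild-type descending, 8.85 and 8.69 in knockout ascending, and 9.52 and 9.14 in knockout descending aorta. In the ascending segment both knockout arrays were lower than both wild-type arrays, and in the descending segment both were higher. The log2 change was -0.76 (SE 0.26; limma unadjusted p = 0.0142, adjusted p = 0.468) in the ascending and 0.24 (SE 0.26; unadjusted p = 0.374) in the descending segment. The test of that difference gave -1.0 (SE 0.36; unadjusted p = 0.0204, adjusted p = 1.0 by limma). No gene was called there (0% of all genes), and Igfbp4 was the 1 gene of the 10 with an unadjusted p under 0.05, against 3.30% of all genes. The segment difference (ascending minus descending) of Igfbp4 was 0.45 (SE 0.26) in wild-type and -0.56 (SE 0.26) in knockout aorta.

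Igfbp5 stood at 8.13 and 8.23 in wild-type ascending, 8.23 and 7.99 in wild-type descending, 7.78 and 7.36 in knockout ascending, and 8.02 and 7.70 in knockout descending aorta. The ascending groups did not overlap, and the descending groups did. The log2 change was -0.43 (SE 0.19; limma unadjusted p = 0.0458, adjusted p = 0.426) over both segments and -0.61 (SE 0.27; unadjusted p = 0.0451) in the ascending segment. Its neighbour Igfbp2 thus had a change of the opposite sign. Without knockout ascending replicate 1 or 2 the ascending value of Igfbp5 was -0.82 and -0.40. In the ascending segment 2 of the 10 genes were higher and 2 lower at an unadjusted p under 0.05, against 5.31% and 3.60% of all genes. In the descending segment 4 were higher, Igfbp2, Igfbp3, Igf2 and Igf2r, and none was lower, against 3.63% and 2.32%.

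Igfbp6, which prefers IGF-II, had a wide spread between replicates in both wild-type ascending and knockout descending aorta. Its values were 7.78 and 6.77 in wild-type ascending, 6.86 and 6.48 in wild-type descending, 6.68 and 6.55 in knockout ascending, and 7.23 and 6.55 in knockout descending aorta. The highest array was wild-type ascending replicate 1. The ascending change was -0.66 (SE 0.37; limma unadjusted p = 0.110) with all arrays, -0.15 without that array and -1.16 without replicate 2. On that array the mean of 10 mesothelial markers was 6.62, against 5.77 to 6.21 on the other 7. Their part in the Igfbp6 values was not tested.

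Endothelial markers were also lower in knockout ascending aorta, for 10 of 12 genes, with a median of -0.73, whereas the descending median was -0.11. In the ascending segment 8 were lower and 1 higher at an unadjusted p under 0.05 by limma, against 3.60% and 5.31% of all genes. Between the wild-type segments (ascending minus descending) the endothelial median was -0.24, with 3 of 12 above 0. Igfbp4 was higher in wild-type ascending than in wild-type descending aorta, with means of 9.54 and 9.09. Their mean was 7.03 and 6.88 in wild-type ascending and 6.45 and 6.31 in knockout ascending aorta, and 7.45, 7.02, 7.37 and 7.06 on the descending arrays, wild-type first. Skeletal muscle markers also differed in that segment, at 6.81 and 7.98 in wild-type and 6.25 and 5.63 in knockout ascending aorta. The part of these cells in the Igfbp4 and Igfbp5 values was not tested.

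**Figure D4:**
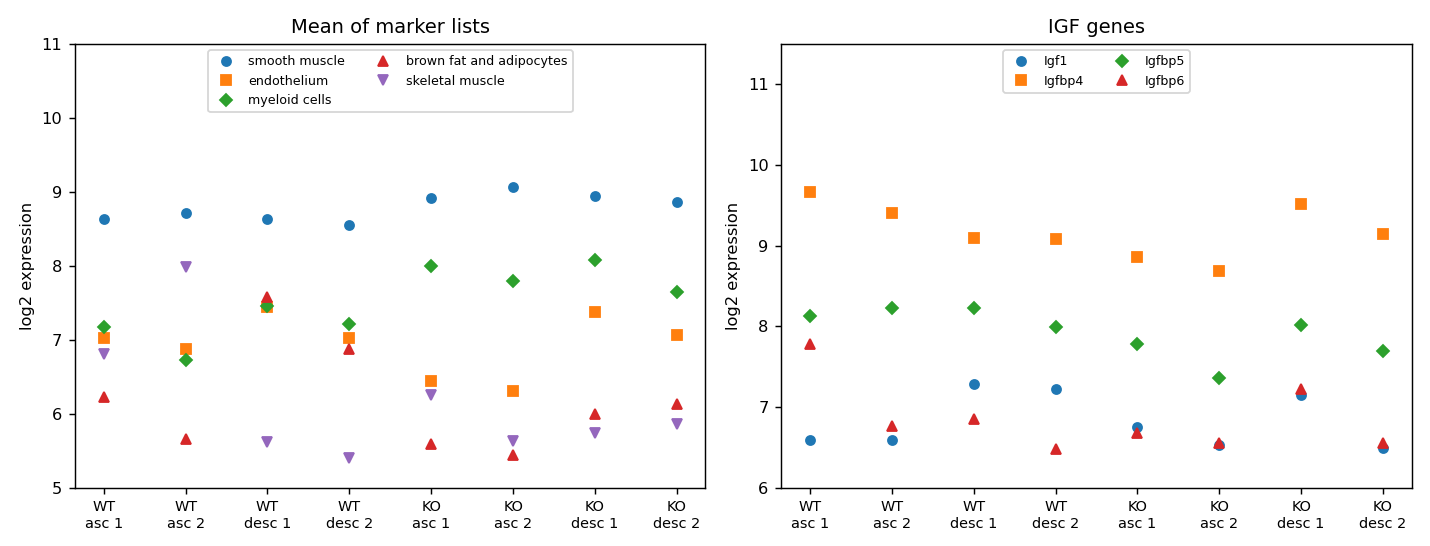
Mean log2 level of 5 lists of cell type markers (left) and log2 level of 4 IGF genes (right) on each array (horizontal axis); points are arrays. Endothelial markers are lowest on the knockout ascending arrays, 6.45 and 6.31, where Igfbp4 is also lowest, 8.85 and 8.69; Igf1 is highest in wild-type descending aorta, as are adipocyte markers.

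**Figure D5:**
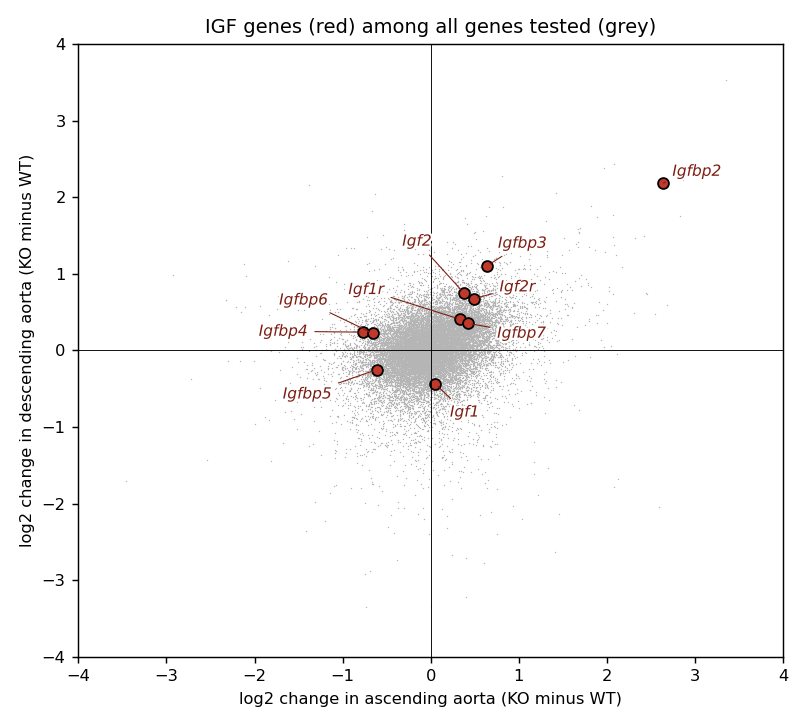
Log2 change, knockout minus wild-type, in the ascending segment (horizontal axis) and in the descending segment (vertical axis) for 22180 genes (grey points) and the 10 IGF genes (red points). Igfbp2 lies far from the bulk at 2.64 and 2.18; Igfbp4 and Igfbp6 are negative in the ascending and positive in the descending segment.

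The other genes of the pathway were read from lists drawn up by function, in the same fit over both segments. These lists, like the members, were chosen with earlier results of these data known, and counts over them are therefore descriptions. Of 18 further IGF-binding proteins and regulators of binding protein cleavage, 0 were called; 5 were higher and 0 lower at an unadjusted p under 0.05, against 7.57% and 3.83% of all genes, with a median of 0.22 against -0.0013. The smallest p belonged to the metalloproteases Adam9 (0.84, SE 0.21), Adamts1 (0.73, SE 0.20), Mmp9 (0.59, SE 0.16) and Mmp2 (0.63, SE 0.19). Pappa, the protease that cleaves IGFBP-4, stood at 0.10 (SE 0.17), and Igfbp1, the neighbour of Igfbp3, at 0.35 (SE 0.42).

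Of 34 measured genes of insulin and IGF receptor signalling, 29 lay above 0 and none was called. The median of the 34 was 0.27, against -0.0013 over all genes and 0.24 in the brightest 20%. At an unadjusted p under 0.05, 7 were higher and 0 lower, against 7.57% and 3.83% of all genes. Of the brightest 20% of genes, 21.8% passed that threshold in either direction. Grb10, an adaptor that restrains these receptors, stood at 0.67 (SE 0.17), and Irs2, a receptor substrate, at 0.76 (SE 0.20). Rictor, of the mTOR complex that acts on AKT, stood at 0.53 (SE 0.18), and the GTPase gene Rheb at 0.70 (SE 0.25). Rheb stood at 1.26 in the ascending and 0.14 in the descending segment. In the growth hormone axis, which controls Igf1 in liver, 1 of 8 genes was higher at an unadjusted p under 0.05, the kinase gene Jak2 (0.84, SE 0.24), and 0 were lower, against 7.57% and 3.83% of all genes. Ghr, the growth hormone receptor, stood at 0.37 (SE 0.20), and the feedback genes Socs3 and Socs2 at 0.35 and 0.58.

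Imprinted growth genes, many of which are expressed together with Igf2 in the fetus, had a median of 0.20 over 14 measured genes, with 2 higher and 0 lower at an unadjusted p under 0.05, against 7.57% and 3.83% of all genes. These were Slc38a4, an amino acid transporter (0.64, SE 0.19), and Asb4 (0.56, SE 0.22), while Mest stood at 0.36 (SE 0.17) and Dlk1 at 0.34 (SE 0.17). Mest was lower in the ascending than in the descending segment in wild-type (-0.85, SE 0.24) and knockout aorta (-0.85, SE 0.24), without passing the adjusted threshold. Igf2bp3, which binds Igf2 mRNA, was the 1 measured gene of its list and stood at 0.65 (SE 0.25).

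The matrix and membrane partners of the binding proteins had a median of 0.51 over 15 measured genes against -0.0013 over all genes, with 8 higher and 0 lower at an unadjusted p under 0.05, against 7.57% and 3.83% of all genes. Thbs1, which encodes thrombospondin 1, was the 1 called gene, with a rise of 2.54 (SE 0.26; limma adjusted p = 0.0144). Itga5, the alpha subunit of the fibronectin receptor, stood at 1.35 (SE 0.19; adjusted p = 0.0536), Fn1, fibronectin, at 0.90 (SE 0.18) and Fhl2, a LIM domain protein, at 0.95 (SE 0.19).

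The 3 IGF genes that varied most over the 8 arrays were Igfbp2 (SD 1.40), Igfbp3 (SD 0.50) and Igfbp6 (SD 0.44). Likeness was measured as Pearson's r over the 8 arrays, which fall into 2 genotypes, so that any gene that differs between genotypes scores high for Igfbp2 and Igfbp3. The genes most like Igfbp2 were Sh3rf1 (r = 0.986), Srsf4 (0.985) and Cd109 (0.979). Those most like Igfbp3 were Psap (0.978), Lrrc8a (0.975) and Tbp (0.973), and those most like Igfbp6 were Star (0.983), Ier5l (0.980) and Inafm1 (0.973). Igfbp6, Star, Ier5l and Inafm1 were each highest on wild-type ascending replicate 1, followed by knockout descending replicate 1. How far their r rests on those arrays was not tested.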

How the data were processed

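Per the labels' protocols, 5 ng of RNA from pooled aortic segments was amplified and biotin-labelled for Affymetrix arrays. The table deposited by the authors holds 1 log2 value per probe set and array. The submitters' processing notes name RMA in Affymetrix Expression Console; neither versions nor a build are given in the sources used. Differences of dim genes are compressed by this method. Of 41345 rows, 23521 had 1 gene symbol, 1814 had several and 16010 are not named here; the highest-mean row per gene left 22180 genes, and H19, whose row has a second symbol, was therefore not tested.

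With limma 3.58.1 (R 4.3.3), a mean per group was fitted over all 8 arrays (4 residual and 5.52 prior degrees of freedom), with Benjamini-Hochberg adjustment over all genes within a comparison and a threshold of 0.05. The comparisons were the knockout effect in each segment and over their mean, the segment difference per genotype, and how far the knockout effects of the segments differed. The procedure was tested on simulated data. Arrays have no counting depth; their number limits the precision, with a median standard error of 0.21 over both segments and 0.30 within one.

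The members and lists were chosen with earlier results of these data known. Named beside the members were up to 4 genes per list with the smallest p over both segments, and the 3 genes of highest r to each of the 3 most variable members, leaving out predicted, small RNA and chemoreceptor genes. Pappa, Igfbp1, Mir483, Igf2os and the tissue markers were named for their role or position, after their values were seen. Alternatives were 2 further scalings, a filter on the dimmest 25%, every row, the mean of a gene's rows, a fit with replicate numbers as a block, a fit of the compared groups alone, the trend and robust options of limma, and arrays left out. Plots were made in Python 3.11.15 (matplotlib 3.10.9).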

Additional observations from a re-analysis of the deposited data

Results flagged for a closer look

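Igfbp4 had knockout values of opposite sign in the segments: both knockout arrays were lower than both wild-type arrays in the ascending and higher in the descending aorta. The difference of the effects was -1.0 (SE 0.36) on the log2 scale, with an unadjusted p of 0.0204 and an adjusted p of 1.0 by limma. It lay between -1.19 and -0.81 over 16 alternatives, with unadjusted p from 0.0102 to 0.0911. The descending value alone was 0.24 (95% interval -0.33 to 0.81; limma unadjusted p = 0.374), and 0.05 without knockout descending replicate 1.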

How the results depend on the processing

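The number of IGF genes called in the knockout effect over both segments was 1 (Igfbp2). It was 0 when every row of the table was tested, where the log2 change of Igfbp2 was the same and its limma p was 0.000193 unadjusted and 0.338 adjusted, and between 0 and 1 when single arrays were left out. In the ascending segment it was 0, and between 0 and 1 with single arrays left out. The 4 other counts were 0 under every alternative run. Over all genes, the count called in the knockout effect over both segments was 16, and between 0 and 50 with single arrays left out. It was 1 with every row and 35 without the dimmest 25% of genes; the cause was not tested. The fit of only the groups compared gives nothing different for the mean of both segments and for the difference between segments, and was not run there. With single arrays left out, the lone array of a group is assumed to vary like the other groups. Of 1000 recomputed changes, 28 changed sign, none of them called or at an unadjusted p under 0.05 with all arrays. With the replicate number as a block, the adjusted p of Igfbp2 was 0.0235 by limma and no call of an IGF gene changed. That block joins same-numbered arrays of both genotypes, whose pools cannot share pups. It therefore cannot show whether the call of Igfbp2 holds if the segments of a genotype came from the same pups. Same-numbered arrays deviated together only in part, with correlations across genes from -0.0778 to 0.292 over the 6 pairs of groups. The highest was that of the wild-type segments, whose replicate 2 arrays were the narrow ones, and that of the knockout segments was -0.0168. No pairing was assumed, and these correlations cannot decide whether pools shared pups. The fit over both segments treats all arrays of a genotype as independent. That would not hold if its ascending and descending pools came from the same pups, which was not tested.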
